A study of Mus musculus with 13 samples.

Results

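The cytosolic ribosomal protein genes were examined for R-loop peaks in N2a cells, a mouse neuroblastoma line. Members were chosen by name alone, as the protein-coding genes of the mm9 annotation (GENCODE vM1) whose symbol is Rpl, Rps or Rplp followed by a number and at most a short suffix. This rule found 82 of 22367 protein-coding genes. They comprise 42 genes of the large subunit, 30 of the small subunit, the 3 stalk genes Rplp0, Rplp1 and Rplp2, and 7 paralogs named after another ribosomal protein. A peak was assigned to a gene when it overlapped the gene or the 1 kb on either side of it.

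An R-loop is a stretch of DNA where a transcript has annealed to its template, leaving the second DNA strand unpaired. R-loops form mostly while a gene is transcribed, when the new RNA rebinds its template behind the polymerase. Ribosomal protein genes are short housekeeping genes that are transcribed at a high rate in growing cells, and many carry small nucleolar RNAs in their introns. Each encodes 1 protein of the ribosome, and the cell needs these proteins in like amounts. DRIP-seq, the sequencing of immunoprecipitated DNA, recovers such hybrids with the S9.6 antibody.

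Cells were transfected with siScramble, siDDX1 or siEXOSC3 small interfering RNA, with 3 untreated libraries for each. DDX1 belongs to the DEAD-box helicases, and EXOSC3 is a core part of the RNA exosome, which degrades and trims RNA. For each of the 3 groups 1 further library was made after digestion by RNase H, an enzyme that degrades RNA paired to DNA. All DNA was cut with 5 enzymes (HindIII, XbaI, SspI, BsrGI and EcoRI) before the pulldown, and the untreated libraries of a group came from separate plates of 1 cell line. Sample titles name another treatment than the peaks inside the list do, in 12 of 12 lists. Groups are therefore given by title, as "labelled siDDX1" and so on. By the peak names, the libraries labelled siScramble would be siDDX1, those labelled siDDX1 would be siEXOSC3 and those labelled siEXOSC3 would be siScramble, so every direction between groups below depends on the titles. The comparison with RNase H and the tests across all 3 groups do not.

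The untreated lists held 23882 to 42571 peaks, and the RNase H lists held 3811 to 8034. Read depth was not given in the sources used here, and shorter lists cannot be told apart from shallower libraries. A peak lay over the start in at least 1 untreated library for 4 of 10 marker genes of neuroblastoma cells and for 0 of 8 marker genes of other cell types. Over all protein-coding genes this held for 7617 of 22367. Of the 4 markers, Mycn and Chga had a start peak in only 2 of 9 libraries each. Expression was not analysed here.

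Nearly all ribosomal protein genes lay under R-loop peaks. Of the 82 genes, 77 had a peak in at least 1 untreated library, against 49.9% of all protein-coding genes. A peak was called in 9 of 9 untreated libraries for 75 of them, which is 91.5%, against 26.2% of all genes. The large subunit contributed 41 of its 42 genes, the small subunit 29 of 30, the stalk 3 of 3 and the paralogs 2 of 7. In single libraries the share of ribosomal protein genes with a peak ran from 91.5% to 93.9%, whereas the share of all genes ran from 32.3% to 43.1%.

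**Figure D1:**
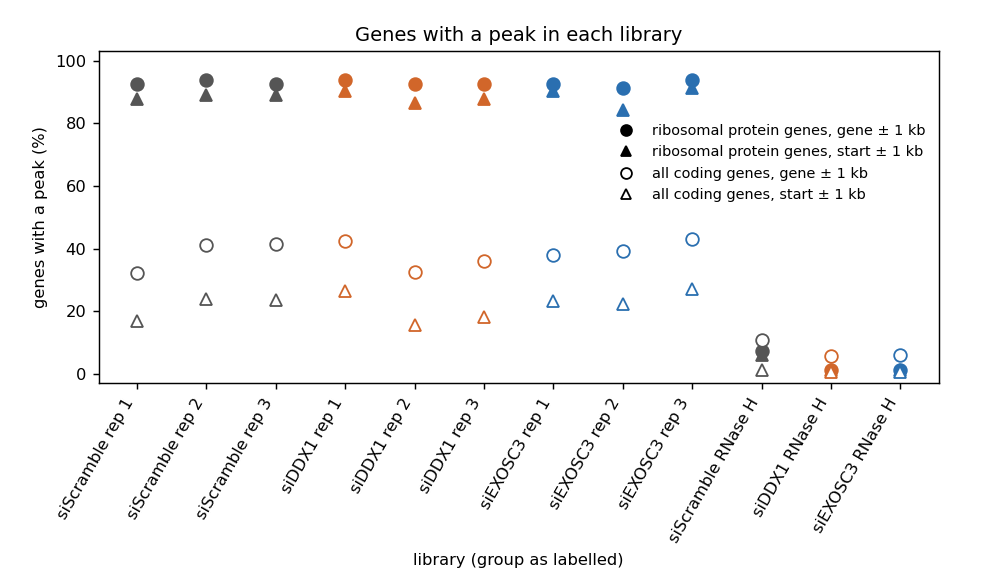
Percentage of genes with a peak (vertical axis) in each of the 12 libraries (horizontal axis, coloured by labelled group), for ribosomal protein genes (filled) and all 22367 protein-coding genes (open), over the gene with 1 kb on each side (circles) or 1 kb on each side of the start (triangles). The filled circles sit between 91.5% and 93.9% in the 9 untreated libraries and at 7.32% or below in the 3 RNase H libraries.

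Ribosomal protein genes were short, so that they offered less length for a peak to overlap. Their median length was 3238 bases, against 15427 bases over all protein-coding genes. In a window of fixed length, 1 kb on each side of the annotated start, 67 of the 82 genes had a peak in 9 of 9 untreated libraries (81.7%), against 11.1% of all genes. In the matching window at the annotated end, 59 had one (72%), against 10.3% of all genes. The mean share over the 9 libraries with a peak at the start was 88.5% ± 2.21 (SD, n = 9). Of all members, 30 had another protein-coding gene within their window, so that a peak there can belong to either gene. Of the 52 without such a neighbour, 49 were called in 9 of 9 libraries. A wide peak can still reach a gene beyond that window. The share among all genes without a neighbour was not computed.

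Peaks over these genes extended well beyond the start. The share of ribosomal protein genes under a peak was 33.6% ± 4.32 (SD, n = 9 libraries) at 975 bases before the start and 80.6% ± 3.36 at 25 bases after it. It was highest at 275 bases after the start, with 82.5% ± 4.99. At 2975 bases after the start it was still 60.8% ± 7.94, while that of all genes was 6.37% ± 1.44. With a median member length of 3238 bases, that position lay near or past the end of many members. For a gene of the median length over all genes, 15427 bases, it lay well inside. Over all genes the share was highest at 25 bases before the start, with 13.2% ± 3.18. The median ribosomal protein gene called in every untreated library had 71.2% of its extended length under peaks, against 18.3% for the median of all such genes. This share depends on gene length, and the median length was 3238 bases for members and 15427 over all protein-coding genes. Of the 82 genes, 14 were covered over at least 90% of that length on average and 65 over at least 50%.

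**Figure D2:**
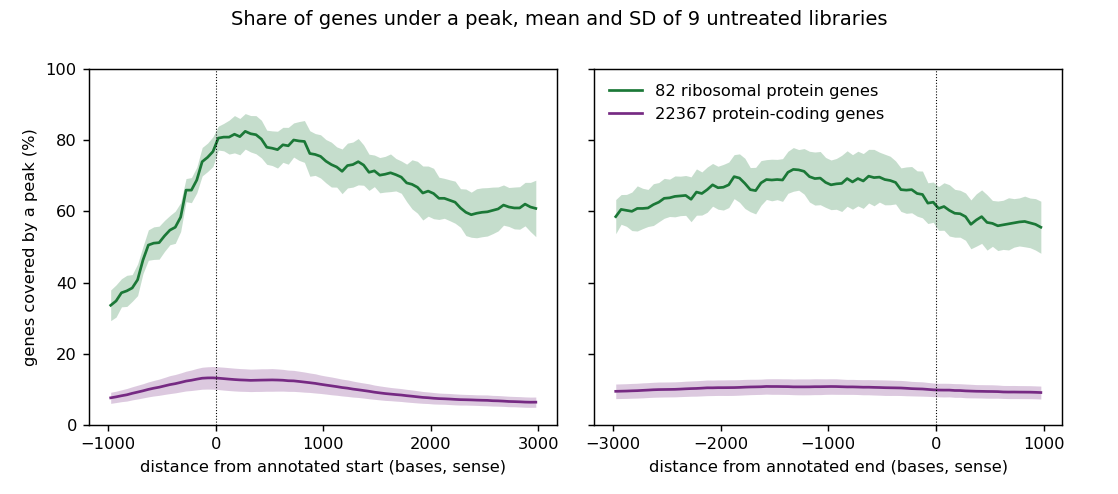
Percentage of genes covered by a peak (vertical axis) by distance in bases from the annotated start (left) and end (right), in the direction of transcription. Lines are means and bands the SD of the 9 untreated libraries, for 82 ribosomal protein genes (green) and 22367 protein-coding genes (purple). The green line climbs from 33.6% at 975 bases before the start to 82.5% at 275 bases after it.

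These peaks also ranked high within each library. The fold enrichment of each peak over its local background was turned into a percentile of its own list, where 100 is the strongest peak. The strongest peak over a called ribosomal protein gene had a median mean percentile of 98.8, against 60.5 for all called genes. Per library, 80.5% to 90.2% of the 82 genes had their strongest peak at or above the 90th percentile of the list, compared with 30.1% to 37.7% of all genes with a peak in that library. The highest fold enrichment was 105, over Rpl36 (chr17:56752818-56753666), a gene of the large subunit. In its 9 untreated libraries the fold enrichment of Rpl36 ran from 60.2 to 105 with a median of 80.7, and its mean percentile was 99.99. Rpl38 (median fold 67.4), Rpl30 (62.8) and Rpl13 (57.7) came next, with every library at 35.0-fold or above.

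**Figure D3:**
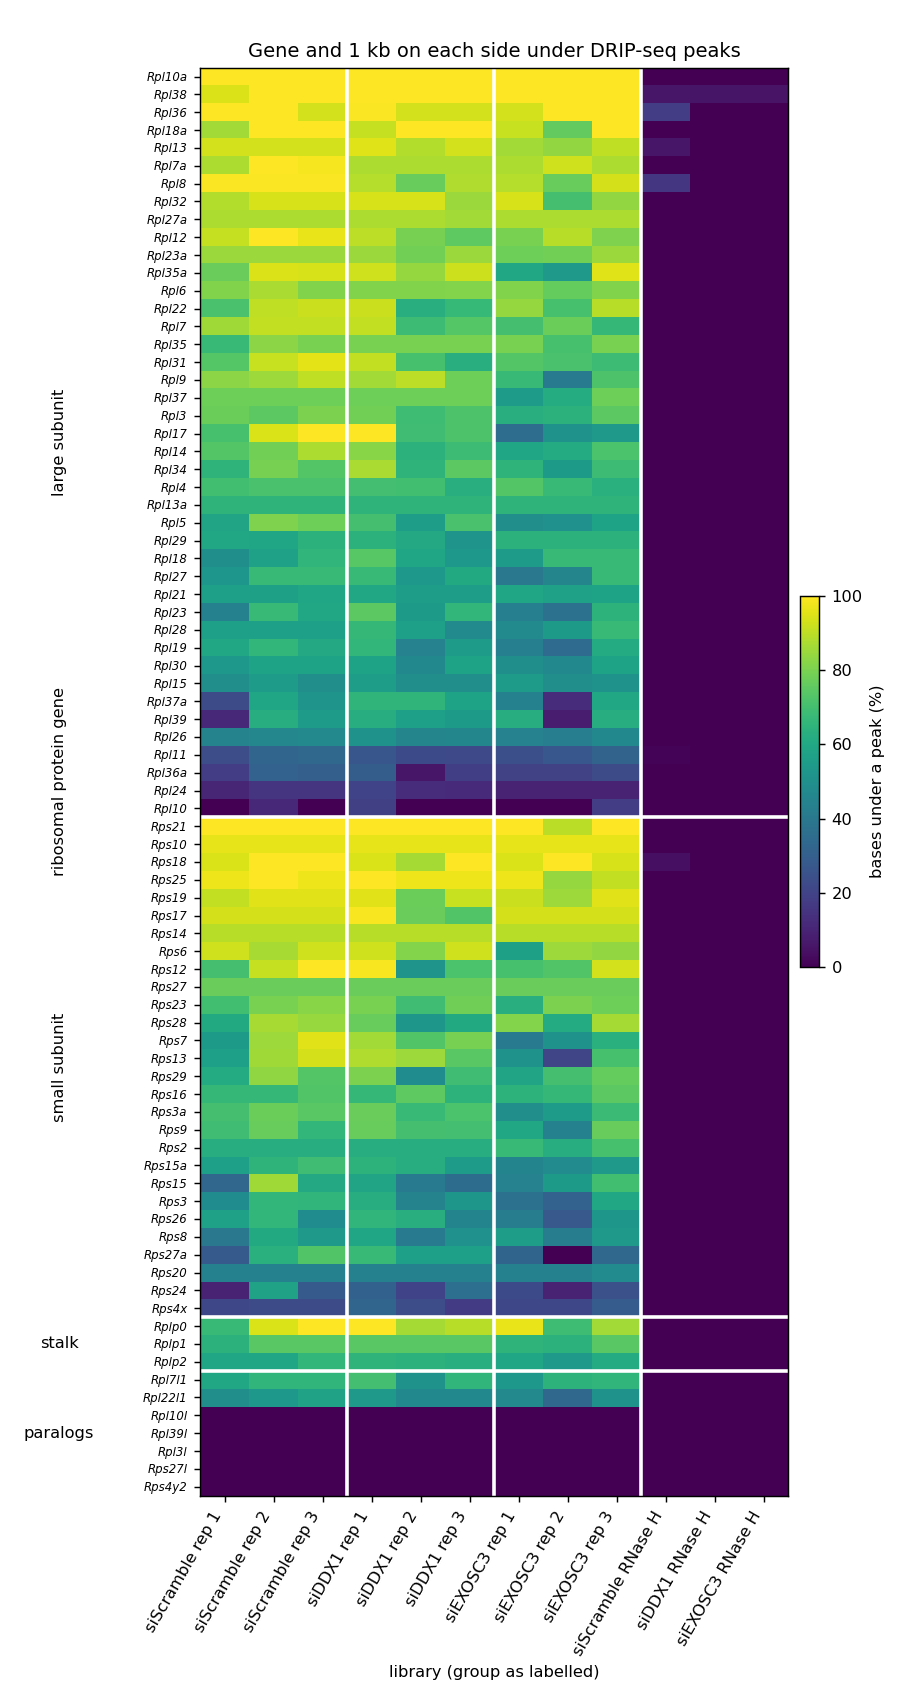
Percentage of bases under a peak (colour) over 80 of the 82 ribosomal protein genes with 1 kb on each side (rows, grouped by subunit) in 9 untreated and 3 RNase H libraries (columns). Of the rows, 73 are above 0 in all 9 untreated libraries, 5 paralog rows are at 0 throughout, and the RNase H columns are at or near 0.

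Among genes with a start peak in 9 of 9 libraries, Rpl22, Rps15a, Rps10, Rpl11, Rps19, Rpl7l1, Rpl5 and Rpl38 had the most bases under peaks. Rpl22 (chr4:151699851-151708180), which encodes a large subunit protein, had 7345, 9355 and 9488 covered bases in the libraries labelled siScramble. It had 9487, 6462 and 6928 in those labelled siDDX1, and 8705, 7330 and 9215 in those labelled siEXOSC3. The 3 groups overlapped. Rpl11 (chr4:135584180-135609343), whose protein binds 5S rRNA together with that of Rpl5, ran from 6003 to 9029 covered bases over the 9 libraries. Rps19 (chr7:25669390-25674825), a small subunit gene whose human counterpart is mutated in Diamond-Blackfan anaemia, ran from 5769 to 7110. Rpl38 (chr11:114529838-114533645) had 5808 covered bases, its whole extended length, in 8 of 9 libraries and 5507 in siScramble replicate 1.

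The stalk proteins recruit translation factors to the ribosome, and their genes were called throughout. Rplp0 had a mean of 5495 covered bases, Rplp1 of 2316 and Rplp2 of 3810. For Rplp0 the libraries ran from 4244 to 6261 bases, for Rplp1 from 2092 to 2423 and for Rplp2 from 3374 to 4124. Rplp1 had 2423 bases in 6 of 9 libraries.

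The genes without peaks were paralogs. Rpl3l, Rpl10l, Rpl39l, Rps4y2 and Rps27l had no peak in any of the 12 libraries. Rpl3l is known for its expression in muscle and Rpl10l and Rpl39l for theirs in testis, while Rps27l is known as a gene induced by p53. The paralogs Rpl7l1 and Rpl22l1 were called in 9 of 9 libraries. Rpl7l1 had a mean of 6710 covered bases (5536 to 7524) and Rpl22l1 of 1914 (1320 to 2250). Paralogs can share sequence with their parent gene and with processed copies, and reads were aligned with Bowtie2 at its default setting, which reports a single alignment for a read that matches several places.

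Of the parent genes, 2 were not called in every library. Rps27a, which encodes a fusion of ubiquitin with a small subunit protein, was called in 8 of 9. It had 1205, 2702 and 3112 covered bases in the libraries labelled siScramble, 2897, 2402 and 2411 in siDDX1, and 1376, 0 and 1431 in siEXOSC3. Rpl10, an X-linked gene of the large subunit, was called in 3 of 9, with 484 bases in siScramble replicate 2, 818 in siDDX1 replicate 1 and 788 in siEXOSC3 replicate 3. The last 2 are the longest lists of their groups. The Rpl10 peaks were not among the strong ones, at percentiles of 25.2, 65.2 and 58.8.

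Rps27 and its paralog Rps27l encode closely related proteins and differed in every untreated library. Rps27 had 2296 covered bases in 9 of 9 libraries and Rps27l had 0. Rpl39l, another paralog with no peak, is shown beside them. The promoters are given from 100 bases before to 20 bases after the RefSeq start, 5′ to 3′ on the gene's strand, with CTCTTT or CTTTCC (within 50 bases of the start, gene's strand) and CCGGAA (either strand, as TTCCGG on the other) in capitals where present. They were placed in mm9 by exact match at chr3:90017551-90017670 (minus strand) for Rps27, chr9:66793793-66793912 (plus strand) for Rps27l and chr16:10170221-10170340 (plus strand) for Rpl39l.
Rps27: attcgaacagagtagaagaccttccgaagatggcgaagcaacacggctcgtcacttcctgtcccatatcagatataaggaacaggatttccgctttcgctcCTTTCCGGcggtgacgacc
Rps27l: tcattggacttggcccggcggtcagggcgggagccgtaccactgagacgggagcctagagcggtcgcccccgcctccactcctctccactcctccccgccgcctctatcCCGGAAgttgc
Rpl39l: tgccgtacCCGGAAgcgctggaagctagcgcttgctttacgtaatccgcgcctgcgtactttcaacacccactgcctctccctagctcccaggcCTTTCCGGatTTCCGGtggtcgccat
The GC content of these stretches was 51.7% for Rps27, 69.2% for Rps27l and 60% for Rpl39l. Rps27 holds CTTTCC at its start, overlapped by TTCCGG, and Rps27l holds CCGGAA after its start. Rpl39l, with no peak, holds both kinds of motif near its start. A second RefSeq promoter of Rps27l, 327 bases further along the gene, holds none of them in the same stretch.

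Pyrimidine-rich starts are a known feature of ribosomal protein genes, and CCGGAA holds the core letters bound by ETS factors. RefSeq promoters (GRCm38.p6, 250 bases before to 50 bases after the start) were found for 60 of the 82 genes, with 72 promoters in all. Either of the pyrimidine motifs above, on the gene's strand within 50 bases of the start, stood in 47.2% of these promoters, against 8.04% of all 32851. The ETS letters on either strand, anywhere in the promoter, stood in 45.8%, against 14.9%, and their reverse can share letters with a pyrimidine motif. These matches are letters in a window and no measure of binding.

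Ribosomal protein genes with a peak at the start had a lower GC content than other genes with a peak there, as a description with no test. Over 500 bases on each side of the start, the 67 members called there in 9 of 9 libraries had a median GC content of 56.9%, against 61.7% for all 2489 such genes and 51% for the 14750 genes never called there. Their median CpG ratio, observed over expected, was 0.818, close to the 0.812 of all genes called there and above the 0.342 of those never called. GC skew, the excess of G over C on the sense strand in the 500 bases after the start, had a median of 0.0811, against 0.0686 for all genes called there and 0.0312 for those never called. The quartiles of GC skew among these members ran from 0.00627 to 0.141, so single genes spread widely.

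Many peaks over ribosomal protein genes began and ended exactly on a restriction cut. Per untreated library, 84.1% ± 3.04 (SD, n = 9) of the peaks over these genes had at least 1 edge on a cut of the 5 enzymes, to the base. Over all peaks the share was 56% ± 3.81. Both edges lay on a cut for 40.6% ± 4.51 of the peaks over ribosomal protein genes and 7.08% ± 1.22 of all peaks. The peaks over ribosomal protein genes were wide, with a median of 2143 bases, whereas the median over all peaks of a library ran from 479 to 579 bases. The part of width in the shares on cuts was not tested.

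**Figure D4:**
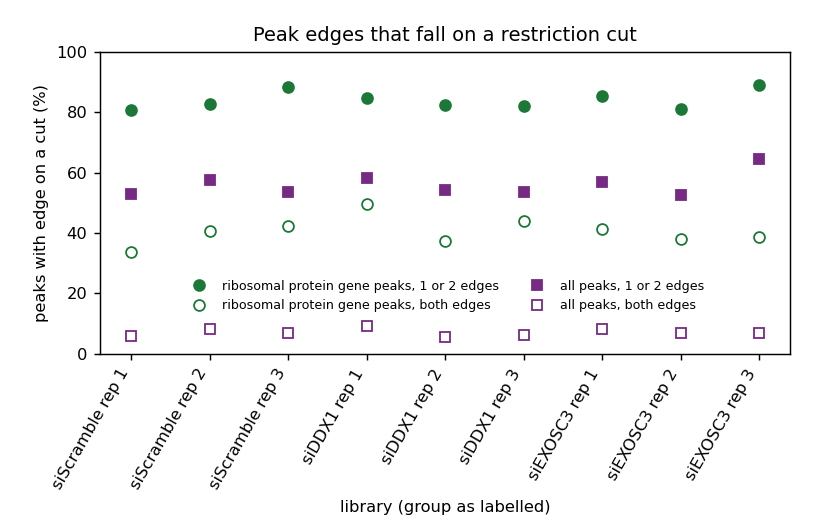
Percentage of peaks with an edge exactly on a cut of any of the 5 enzymes (vertical axis) in each untreated library (horizontal axis), for peaks over ribosomal protein genes (green circles) and all peaks (purple squares), with 1 or 2 edges (filled) or both edges (open) on a cut. Filled circles lie between 80.7% and 89.0%, and filled squares between 52.7% and 64.6%.

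For 7 genes a peak with the same first and last base was called in 9 of 9 untreated libraries, and in all 7 both edges were cuts. For 33 genes the same 2 edges recurred in at least 5 libraries, and 32 of these had both edges on a cut. The same counts over all protein-coding genes were not computed. Rps10 shows this best, since a single peak of 8646 bases over the whole gene (chr17:27765616-27774261) was called with the same edges in every untreated library. Its covered bases within the gene and 1 kb on each side were 7895 in all 9. The mm9 plus strand around the edges of Rps10, Rps20 and Rpl30 is shown, 5′ to 3′, with the recognition site in capitals.
Rps10, first edge, HindIII, chr17:27765603-27765632: tttataattttgAAGCTTctcccaacctat
Rps10, last edge, SspI, chr17:27774247-27774276: ccagccccaagcAATATTtaaacccataat
Rps20, first edge, XbaI, chr4:3760528-3760557: gatgaaattttaTCTAGAgtttagcatgct
Rps20, last edge, HindIII, chr4:3763316-3763345: ccattaattactAAGCTTatattctaaaaa
Rpl30, first edge, HindIII, chr15:34371981-34372010: cgtatactacacAAGCTTcttcagcttact
Rpl30, last edge, SspI, chr15:34375381-34375410: cccccactctcaAATATTtctggtagacac
The Rps20 peak was 2792 bases wide and the Rpl30 peak 3402. The 6 genes with the same number of covered bases in all 9 untreated libraries included Rps10, Rpl10a, Rps14, Rps27 and Rpl13a. For the 6 the comparison of groups on covered bases could not register a change of signal.

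Few of these peaks were called after RNase H digestion. Each group had 1 such library, of unknown depth and with fewer peaks in all, so digestion and depth cannot be told apart here. Over the ribosomal protein genes 6 had any peak in the 3 RNase H libraries, which is 7.32%, against 13.5% of all protein-coding genes. That share depends on gene length, and members were shorter. Within 1 kb of the start the order was the other way. For the siScramble digest, a start peak was called for 6.1% of members and 1.09% of all genes. The shares were 1.22% and 0.514% for the siDDX1 digest, and 1.22% and 0.689% for the siEXOSC3 digest. These are only 5, 1 and 1 members, and the difference was not tested. Covered bases were lower with RNase H for 75 of the 77 genes tested (97.4%) at an adjusted p under 0.05, against 38.2% of all genes tested. These 75 were also the genes called in 9 of 9 untreated libraries, so the share largely follows the calls. The share among all genes called in 9 of 9 was not computed. For these 75 genes the exact permutation test over 64 assignments gave its smallest possible p, 0.0156, and an adjusted p of 0.0388. Rps27a (adjusted p = 0.0678, exact permutation test) and Rpl10 (adjusted p = 0.667, same test) did not pass. Leaving out any of siScramble replicates 2 and 3, siDDX1 replicate 3 and siEXOSC3 replicates 1, 2 and 3 left 48 assignments and 0 genes called, with smallest adjusted p from 0.0501 to 0.0576 and 74 to 76 of the genes at the smallest unadjusted p.

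Rpl38, whose protein is known for its part in translating Hox mRNAs, was the 1 gene with a peak in all 3 RNase H libraries. Its covered bases there were 357 (siScramble), 335 (siDDX1) and 304 (siEXOSC3), compared with 5507 to 5808 in the untreated libraries. The 3 RNase H peaks had fold enrichments of 5.01, 5.08 and 4.7, compared with 35.0 to 89.2 for its strongest untreated peaks. Their summits lay at -208, -503 and -531 bases from the annotated start. In the RNase H library labelled siScramble, the longest of the 3 lists, Rpl8 (667 covered bases), Rpl36 (522), Rpl13 (295), Rps18 (246) and Rpl11 (244) also kept a peak. Among the RNase H peaks the highest fold enrichment was 5.27, over Rpl8.

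No difference between the 3 groups passed the adjusted test on covered bases. With the exact permutation test of the F statistic over 280 splits, 2 of 77 genes had an unadjusted p under 0.05 (2.6%), against 2.79% of all genes tested. At an adjusted p under 0.05 there were 0, as over all genes (0%). The 2 genes, given as those with the lowest p and not as calls, were Rpl9 (p = 0.0321, exact permutation test, adjusted p = 1) and Rps15a (p = 0.0393, exact permutation test, adjusted p = 1). Of the 77, 14 had p = 1 in this exact permutation test. The count was 0 without siScramble replicate 2, siScramble replicate 3 or siDDX1 replicate 2, 1 without siDDX1 replicate 3, 4 without siDDX1 replicate 1, and 6 without siScramble replicate 1 or siEXOSC3 replicate 3.

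Rpl9 (chr5:65779603-65782682), of the large subunit, had 4200, 4327 and 4597 covered bases in the libraries labelled siScramble. It had 4369, 4581 and 3965 in those labelled siDDX1, and 3432, 2078 and 3662 in those labelled siEXOSC3. The libraries labelled siEXOSC3 were all below the other 6. Rps15a (chr7:125247892-125259700), of the small subunit, had 7812, 8987 and 9585 bases in siScramble, 8935, 8594 and 7650 in siDDX1, and 6242, 6685 and 7453 in siEXOSC3. Here too the siEXOSC3 libraries were the 3 lowest. The group means of Rps15a were 8795 ± 902 (siScramble), 8393 ± 666 (siDDX1) and 6793 ± 613 (siEXOSC3; SD, n = 3 each).

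The genes next in order did not pass the threshold. Rpl12, near the base of the stalk in the ribosome, had means of 4736 ± 219, 4028 ± 380 and 4113 ± 259 covered bases in the libraries labelled siScramble, siDDX1 and siEXOSC3 (SD, n = 3 per group, exact permutation test p = 0.0571). Rpl17, whose protein lines the exit of the peptide tunnel, had means of 4335 ± 757, 3949 ± 831 and 2308 ± 487 (SD, n = 3 each, exact permutation test p = 0.0607). Rps3a had means of 5012 ± 235, 4884 ± 320 and 3877 ± 654 (SD, n = 3 each, exact permutation test p = 0.0607). The p were 0.0714 for Rpl13, 0.1 for Rps13 and 0.104 for Rps27a by the same exact permutation test. In 5 of these 6 genes, all but Rpl12, the lowest mean was that of siEXOSC3.

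By pairs of groups, the counts lay on the side of fewer bases in the libraries labelled siEXOSC3. A pair of 3 libraries against 3 cannot give a p below 0.1, so genes were counted whose libraries did not overlap between the groups. All 3 siEXOSC3 libraries were below all 3 siScramble libraries for 13 of 77 genes (16.9%), against 3.55% of all genes tested. They were above for 0 of 77, against 6.41%. The 13 were Rpl5, Rpl7, Rpl8, Rpl9, Rpl12, Rpl13, Rpl14, Rpl17, Rpl24 and Rpl31 of the large subunit and Rps3a, Rps6 and Rps15a of the small subunit. Without siScramble replicate 1 the count was 24 (31.2%), against 25.3% of all genes. Without siEXOSC3 replicate 3 it was 30 (39%), against 10.3% of all genes. Without the 1 kb extension it was 8 (10.4%), against 3.84% of all genes, and with peaks up to 1000 bases apart joined it was 3 (3.9%), against 3.43% of all genes.

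**Figure D5:**
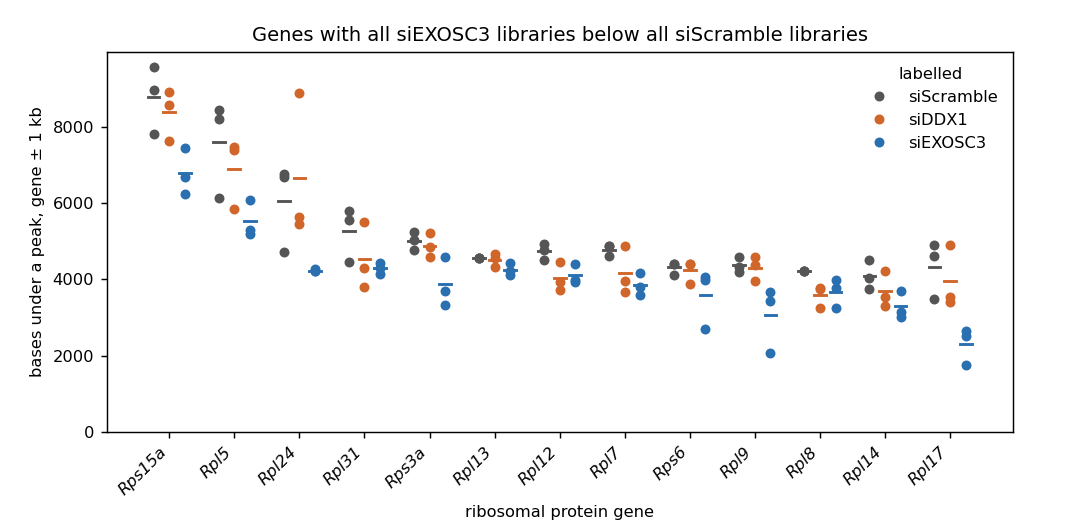
Bases under a peak over the gene and 1 kb on each side (vertical axis, from 0) in 9 untreated libraries, for the 13 ribosomal protein genes (horizontal axis) whose siEXOSC3 libraries all lie below their siScramble libraries, as labelled. Points are libraries and bars the means of 3. The genes were chosen for that order, so the gap between grey and blue points is a description, and the siDDX1 points (orange) overlap 1 or both of the other groups in most genes.

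Among genes called in 9 of 9 libraries it was met by 17.3% of the 75 ribosomal protein genes and 5.05% of all 5859. Among those with at least 50% of their extended length covered it was met by 18.5% of 65 ribosomal protein genes and 6.99% of all 1030. The median difference of group means, siEXOSC3 minus siScramble, was -264 covered bases over the 77 ribosomal protein genes, with 57 below 0 and 12 above, compared with -4 bases over all 11156 genes tested, of which 5608 were below 0 and 5195 above. Among genes called in 9 of 9 libraries the median difference was -264 bases for the 75 ribosomal protein genes, with 74.7% lower in siEXOSC3, and -150 bases for all 5859, with 56.8% lower. Among those with a mean percentile of 90 or more it was -236 bases for 68 ribosomal protein genes and -161 bases for all 2364. The sum over the ribosomal protein genes was 293, 343 and 340 kb in the libraries labelled siScramble and 284, 269 and 318 kb in those labelled siEXOSC3, which overlap. No p belongs to these counts, since the genes are not replicates of a condition.

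Among the 13, Rpl5 (chr5:108329521-108338024) had the largest difference. It had 6147, 8460 and 8206 covered bases in siScramble, 7395, 5846 and 7473 in siDDX1, and 5194, 5306 and 6097 in siEXOSC3. The gap between the closest siScramble and siEXOSC3 libraries of Rpl5 was only 50 bases, and siDDX1 overlapped both. Rpl7 had 4604, 4875 and 4875 bases in siScramble and 3789, 4160 and 3585 in siEXOSC3, with 4875, 3676 and 3957 in siDDX1. Rps6, whose protein is phosphorylated downstream of growth signals, differed by -738 bases in mean, siEXOSC3 minus siScramble. For Rpl24 that difference was -1833 bases, over an annotated gene of 42639 bases that is far longer than its neighbours in this list.

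The other pairs gave smaller counts. The siDDX1 libraries were all below the siScramble libraries for 2 genes, Rpl8 and Rpl12 (2.6%), against 1.86% of all genes, and above for 0, against 0.816%. That count was 16 (20.8%) without siScramble replicate 1, against 19.3% of all genes, and 13 (16.9%) without siDDX1 replicate 1, against 18.7%. The siEXOSC3 libraries were all below the siDDX1 libraries for 8 genes (10.4%), against 2.37% of all genes, and above for 0, against 5.06%. These were Rpl9, Rpl17, Rpl24, Rplp2, Rps7, Rps13, Rps15a and Rps27a. The count was 15 (19.5%) without siDDX1 replicate 2, against 9.02% of all genes, and 24 (31.2%) without siEXOSC3 replicate 3, against 9.66%. The pairs share libraries, so their lists are not independent. A peak in all 3 libraries of any group and in 0 of 3 of another was found for 0 ribosomal protein genes, against 1.95% of all genes tested. The 75 genes called in 9 of 9 libraries could not meet this, so the 0 follows largely from the calls.

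On rank within the library, the genes with the lowest p were not those with the lowest p on covered bases. Of the genes low on rank, Rpl31 and Rpl7 were also among those with all siEXOSC3 libraries below all siScramble libraries on covered bases. On the percentile of the strongest peak, 8 of 77 genes had an unadjusted p under 0.05 by the same exact permutation test (10.4%), against 5% of all genes tested, and 0 had an adjusted p under 0.05, as over all genes (0%). The count was 3 without siScramble replicate 2 or siEXOSC3 replicate 2, 5 without siScramble replicate 3 or siDDX1 replicate 2, and 13 without siEXOSC3 replicate 3. The lowest p were those of Rpl31 and Rps16 (0.00714 each, exact permutation test, adjusted p = 0.878). Rpl7 (p = 0.0143) and Rps24 (p = 0.0214) were also among the lowest in that exact permutation test.

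Among these named genes the differences in rank were under 2 percentile points between group means, except in Rps24. The mean percentile of Rpl31 was 99.5 ± 0.333 for siScramble, 99.0 ± 0.26 for siDDX1 and 98.0 ± 0.589 for siEXOSC3 (SD, 3 libraries each). For Rps16 it was 99.7 ± 0.0113, 98.9 ± 0.428 and 99.6 ± 0.0934, so siDDX1 was the lowest group there. For Rpl7 it was 99.2 ± 0.453, 99.5 ± 0.066 and 98.5 ± 0.278. In Rps24, whose transcripts are spliced in several forms, the percentiles were 97.0, 99.0 and 99.4 in siScramble, 96.3, 88.0 and 96.6 in siDDX1, and 97.0, 98.4 and 97.9 in siEXOSC3. The lowest 3 values of Rps24 were those labelled siDDX1.

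Genes of related function were set beside the ribosomal protein genes from lists chosen by name. The cytosolic ribosomal protein genes that the name rule left out, Rpsa, Fau, Rpl36al and Gnb2l1 among them, were called in 9 of 9 libraries in 5 of 5 cases, with mean covered bases from 2481 (Fau) to 6725 (Gnb2l1). Of 50 ribosome biogenesis factors, 36 (72%) were called in 9 of 9, and 38% at the start. Of 75 mitochondrial ribosomal protein genes, 31 (41.3%) were, and 24% at the start. The median mean percentile of the strongest peak was 84.3 for the called biogenesis factors and 57.4 for the called mitochondrial ribosomal protein genes, compared with 98.8 for the cytosolic ones. In the test on covered bases across groups, 1 of the 5 left-out genes, Rpl36al, had an unadjusted p under 0.05. So did 3 of 49 biogenesis factors and 1 of 70 mitochondrial ribosomal protein genes, against 2.79% of all genes tested. No gene of these lists had an adjusted p under 0.05. All siEXOSC3 libraries were below all siScramble libraries, as labelled, for Rpl36al and the biogenesis factors Ncl, Fbl, Nop58, Gar1, Riok2 and Utp3. These were the only such genes among the 5 left-out genes and the 49 biogenesis factors tested, against 3.55% of all genes tested. That order was thus not particular to the ribosomal protein genes chosen by the rule. Among the left-out genes and biogenesis factors the opposite order was not found, against 6.41% of all genes tested.

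Small nucleolar RNAs guide the modification of rRNA. Of 29 ribosomal protein genes with such an RNA on the same strand, 28 were called in 9 of 9 libraries, compared with 47 of the 53 without. At the start window the order was the other way, with 22 of 29 hosts (75.9%) and 45 of the 53 others (84.9%) called in 9 of 9. The median mean percentile of called genes was 99.2 for hosts and 98.5 for the others. The 5 paralogs with no peak are among the 53.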

How the data were processed

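DRIP-seq peak lists of 12 libraries of N2a cells were analysed, and 1 input sample was not analysed here. Per the labels, the authors aligned reads to mm9 with Bowtie2 2.4.4 and called peaks per library with MACS2 2.2.6 against input. The deposited lists give positions, fold enrichment as a linear ratio and −log10 q per the authors' peak caller, and only these were used. Groups came from sample titles. The members and lists were chosen with earlier results of these data known.

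For each protein-coding gene (GENCODE vM1, extended by 1 kb), covered bases, the percentile of the strongest peak's fold and start-window calls (1 kb each side) were computed in Python 3.11.15 with numpy 2.4.6 and scipy 1.17.1. Groups were compared with exact permutation F tests (280 splits, smallest p 0.00357) for 11156 genes with a peak in at least 1 untreated library, and RNase H two-sided over 64 assignments (smallest p 0.0156) for 12116 genes, Benjamini-Hochberg adjusted over all genes tested. Pairs of groups got no p. Genes named were those with the most covered bases among those called at the start in 9 of 9 libraries, the lowest p, an RNase H peak, the stalk genes, paralogs and genes with no peak. The 13 genes below siScramble, the sequences shown, and the subsets matched on calls or coverage were chosen after their values were seen. The tests were tested on simulated data. p-values measure only the spread between these libraries. A list gives no read counts, so depth and counting error are unknown. Values of a few genes are not reported here, and the heat map leaves out their rows.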

Additional observations from a re-analysis of the deposited data

How the results depend on the processing

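The number of ribosomal protein genes with a peak in 9 of 9 untreated libraries ran from 70 to 75 under the alternatives for peaks, bounds and overlap and from 75 to 76 with single libraries left out. The mean share with a peak at the start was 86.2% with a window of 500 bases and 88.1% to 89.0% with single libraries left out. The number lower with RNase H was 69 to 75 under the alternatives for peaks and bounds and 0 to 75 with single libraries left out, where 48 assignments replace 64. The number past p under 0.05 on covered bases was 1 with equal numbers of peaks per library, 0 without extended bounds, 1 with peaks up to 1000 bases apart joined and 0 to 6 with single libraries left out. That on rank ran from 3 to 13 with single libraries left out. With the replicate number as a block it was 0 on covered bases and 5 on rank. The deviations of same-numbered libraries had correlations of both signs, from -0.81 to 0.84. Whether these libraries share more than a number is not known. Genes not overlapping between groups, siDDX1 below siScramble, were 0 without extended bounds (1.89% of all genes) and 2 to 16 with single libraries left out (1.88% to 19.3% of all genes). For siEXOSC3 below siScramble they were 8 without extended bounds (3.84% of all genes), 3 with peaks joined (3.43%) and 13 to 30 with single libraries left out (3.56% to 25.3%), and for siEXOSC3 below siDDX1 8 to 24 (2.37% to 9.66%). Genes higher without overlap in any pair were 1 with equal numbers of peaks, 1 without extended bounds and 0 to 9 with single libraries left out. The shares of all genes higher under these alternatives were not computed, so these counts have nothing to be set against. A lower mean in siEXOSC3 than in siScramble, a count added after seeing the data, was found for 44 to 62 genes under the same alternatives. With RNase H, leaving out siScramble replicate 1, siDDX1 replicate 1 or siDDX1 replicate 2 also left 48 assignments, but kept 75, 74 and 75 genes. The smallest adjusted p of that exact permutation test was then 0.0458, 0.0475 and 0.0476. The causes of these changes were not tested.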

Other observations

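The 4 X-linked ribosomal protein genes had a lower median rank of their strongest peak than the autosomal ones, with overlap and no test. The mean percentile of the strongest peak was 93.5 for Rps4x, 80.7 for Rpl39, 64.4 for Rpl36a and 16.6 for Rpl10, with a median of 72.6, compared with 99.0 for the called autosomal members. Rps4x was above the autosomal Rps27a (76.8). Over all called genes the medians were 36.2 on the X chromosome and 61.2 on the autosomes. Rpl39, whose protein lies in the peptide exit tunnel, had 555, 3051 and 2691 covered bases in siScramble, 3051, 2747 and 2663 in siDDX1, and 3051, 386 and 3051 in siEXOSC3, so that 2 of 9 libraries lay far below the rest in different groups.

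In siScramble replicate 1, Rps9 lay under a single peak of 3403 bases with a fold enrichment of 3.45, at percentile 0.301 of its list, whereas the strongest Rps9 peak was at percentile 88.5 or above in the other 8 untreated libraries. Rpl13a had 8383 covered bases in 9 of 9 libraries but no peak within 1 kb of its annotated start, and 15 members in all lacked a start peak in at least 1 untreated library.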
